A study of Homo sapiens with 4 samples.

Results

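The genes of DNA replication and nucleotide supply were examined in LV-M100 cells after depletion of SNRNP40, a spliceosomal protein found in the U5 particle. The set holds 50 genes, chosen by name for their role, of 23217 gene symbols in the deposited table, and they account for 88 of its 44578 rows, each row being an assembled transcript. LV-M100 is a subclone of MDA-MB-231, a human breast cancer line, and is a single clone that was selected for low variability. The experiment comprised 4 bulk libraries of ribosomal RNA-depleted total RNA, collected 48 h after Lipofectamine transfection. Both control libraries received an siRNA without SNRNP40 as its target, NC1 in replicate 1 and the BLOCK-iT Fluorescent Oligo in replicate 2, and the other 2 libraries received siSNRNP40 #1 and siSNRNP40 #2. The authors merged each pair of libraries into 1 FPKM value per row and condition, FPKM being fragments scaled by transcript length and by mapped fragments. There is therefore no replicate error and no test between the conditions here, the depth is unknown, and every difference below is a comparison of 2 pooled values. The FPKM of all rows of a gene symbol was summed, and log2 fold changes, with no pseudocount added, set SNRNP40 siRNA over control siRNA.

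The siRNAs against SNRNP40, the only sequences that distinguish the treated libraries, are given as the labels print them, 5′ to 3′.
siSNRNP40 #1: ggaauagacaaugauauc
siSNRNP40 #2: ggauuugaccgacugaua

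SNRNP40 itself had 40.4 FPKM in the control and 6.12 FPKM after its depletion, a decrease of 84.9% (log2 fold change -2.72), and its log2 fold change was the second lowest of the 12334 genes that passed the expression filter, which asked for a finite fold change and for 1 FPKM or more as the mean of the conditions. Of the markers of a mesenchymal breast cancer line, VIM (750 and 733 FPKM with control and SNRNP40 siRNA), CD44 (116 and 141) and AXL (125 and 115) were abundant, whereas the hormone receptor genes ESR1 and PGR and the cadherin gene CDH1 were below 0.1 FPKM in both conditions and PTPRC was listed at 0. The epithelial keratin genes KRT8 (136 and 119 FPKM) and KRT18 (158 and 131) and the adhesion gene EPCAM (10.6 and 10.0) were also expressed. So was the receptor gene ERBB2 (6.56 and 7.42 FPKM). PECAM1 was low but not at 0, with 0.922 FPKM with control siRNA and a log2 fold change of 0.38.

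A cell copies its whole genome in each cycle. In G1 the origin recognition complex, CDC6 and CDT1 load the MCM helicase on DNA, which is called licensing, and in S phase the kinases CDC7-DBF4 and CDK turn the helicase on with CDC45 and the GINS complex. Polymerase alpha with primase starts each strand, and polymerases epsilon and delta extend it. The PCNA clamp, put in place by its RFC loader, holds the polymerase on DNA, and RPA covers single strands. Ribonucleotide reductase, thymidylate synthase and related enzymes supply the nucleotides, and CAF-1 and UHRF1 restore nucleosomes and DNA methylation behind the fork. Many of these genes are known to be transcribed around the G1 to S transition by E2F factors, and proliferating tumour lines express them together.

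The promoters were read for that shared feature, which played no part in choosing the genes. RefSeq windows on GRCh38.p14, from 250 bases before to 50 bases after a transcription start, were at hand for 44 of the 50 genes, 11 of which had several windows. MCM4, MCM5, GINS4, POLD3, RPA2 and RPA3 had none. The E2F site was searched on both strands in the spellings TTTCCCGC, TTTCGCGC, TTTGGCGC and TTTGCCGC. At least 1 match was present in 22 of the 44 genes, against 6.85% of 8440 genes that passed the expression filter and 3.99% of 27305 genes with a window. The CCAAT box, searched on both strands, was present in 26 of the 44 genes (59.1%), against 44.1% and 39.7% in the same backgrounds. Licensing genes had an E2F match in 8 of 12 genes and nucleotide supply genes in 2 of 5. MCM6 had 4 matches, the most of any member, and 6 members had at least 2.

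The windows of 5 members are shown because each holds E2F matches, drawn in capitals together with CCAAT boxes. MCM3 (chr6:52284693-52284992, minus strand) was the most abundant member, MCM6 (chr2:135876394-135876693, minus strand) had the most matches, CDT1 (chr16:88803539-88803838, plus strand) and TYMS (chr18:657403-657702, plus strand) had the highest and the lowest log2 fold change among members with a match, and ORC3 (chr6:87589885-87590184, plus strand) had the largest shift between its rows. All are read along the gene, 5′ to 3′. The capitals of MCM6 run over 12 bases in 2 places, where matches on the opposite strands overlap.
MCM3: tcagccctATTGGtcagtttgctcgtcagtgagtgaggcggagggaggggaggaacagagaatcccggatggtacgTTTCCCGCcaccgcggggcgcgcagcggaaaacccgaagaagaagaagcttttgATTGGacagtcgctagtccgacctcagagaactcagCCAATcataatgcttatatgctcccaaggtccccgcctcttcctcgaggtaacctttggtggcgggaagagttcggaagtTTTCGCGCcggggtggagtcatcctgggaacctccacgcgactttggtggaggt
MCM6: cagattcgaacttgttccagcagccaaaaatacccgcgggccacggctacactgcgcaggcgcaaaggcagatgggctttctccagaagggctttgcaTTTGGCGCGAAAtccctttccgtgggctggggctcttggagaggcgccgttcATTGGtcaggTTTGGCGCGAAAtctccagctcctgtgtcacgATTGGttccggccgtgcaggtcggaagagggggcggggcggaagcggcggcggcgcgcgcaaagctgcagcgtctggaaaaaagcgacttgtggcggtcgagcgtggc
CDT1: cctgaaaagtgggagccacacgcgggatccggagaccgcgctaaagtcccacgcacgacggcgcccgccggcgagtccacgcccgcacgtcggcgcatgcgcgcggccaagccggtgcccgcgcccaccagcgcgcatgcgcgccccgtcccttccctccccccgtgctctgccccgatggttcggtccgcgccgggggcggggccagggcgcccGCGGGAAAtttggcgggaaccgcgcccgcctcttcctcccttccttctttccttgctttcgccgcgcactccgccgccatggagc
TYMS: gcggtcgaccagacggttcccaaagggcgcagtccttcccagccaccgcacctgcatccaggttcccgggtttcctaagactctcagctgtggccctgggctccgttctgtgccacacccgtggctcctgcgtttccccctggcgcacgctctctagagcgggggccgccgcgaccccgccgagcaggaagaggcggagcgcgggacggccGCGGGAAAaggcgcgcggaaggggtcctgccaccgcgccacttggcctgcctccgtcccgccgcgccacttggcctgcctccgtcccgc
ORC3: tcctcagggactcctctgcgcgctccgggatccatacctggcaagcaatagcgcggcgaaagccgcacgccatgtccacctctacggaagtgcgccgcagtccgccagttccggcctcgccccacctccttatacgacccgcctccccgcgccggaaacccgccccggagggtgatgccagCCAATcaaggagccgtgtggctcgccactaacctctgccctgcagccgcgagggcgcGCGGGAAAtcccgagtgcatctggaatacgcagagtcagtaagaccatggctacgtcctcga

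Members with an E2F match had a median log2 fold change of 0.021 (10 lower and 12 higher after depletion, from -0.31 to 0.23), and members with a window but no match had a median of -0.012 (13 lower and 9 higher, from -0.33 to 0.29). The ranges overlapped almost completely, and with upper-quartile scaling both medians were above 0.

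All 50 members passed the expression filter, and their mean FPKM ran from 4.31 (CDT1) to 174 (MCM3). None differed between the conditions by more than 0.5 on the log2 scale. After SNRNP40 depletion 0 of 50 lay below a log2 fold change of -0.5, where 5.06% of all 12334 genes lay, and 0 of 50 lay above 0.5, where 5.24% lay. An absolute log2 fold change above 1 was passed by 1.47% of all genes and by none of the members. Low genes scatter more, so the members were also set beside the 8613 genes with a mean FPKM within their own range, of which 6.29% were past 0.5 in either direction. The median absolute log2 fold change was 0.11 over the members, 0.15 over the genes in that range and 0.17 over all genes. Of the members 23 were lower and 27 were higher after depletion, so 46.0% were lower against 49.5% of all genes. Their median log2 fold change was 0.013, and that of all genes was 0.0034. In bulk libraries such as these, a different number of cells in S phase and a different amount of RNA per cell cannot be told apart, in either direction.

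**Figure D1:**
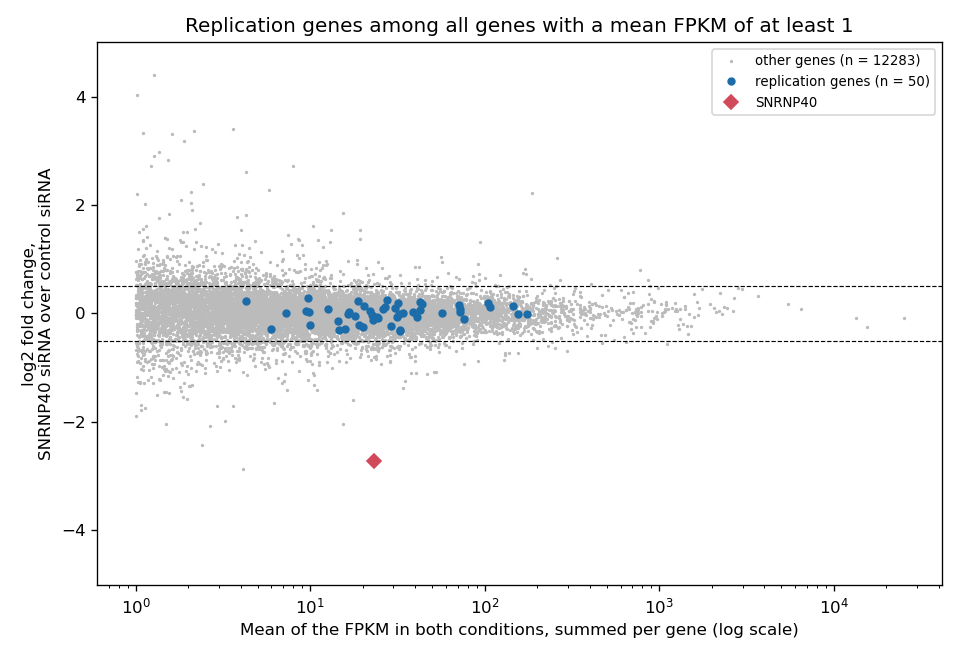
Mean FPKM over both conditions, summed per gene, on a log axis against the log2 fold change of SNRNP40 siRNA over control siRNA. Grey points are 12283 other genes, blue points the 50 replication genes and the red diamond SNRNP40, and dashed lines mark 0.5 in either direction. The replication genes lie between -0.33 and 0.29, while SNRNP40 lies at -2.72.

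The FPKM of the set added up to 1944 in the control and to 1980 in depleted cells (log2 ratio 0.027), which was 0.377% and 0.383% of the total FPKM in the table. The order of the levels was also alike in both conditions. Spearman's rho between them was 0.99 over the 50 genes, which share their pooled libraries, and no gene moved by more than 7 places. MCM3, RRM1, PCNA, MCM7 and GMNN held the first 5 places in both conditions, in that order, and POLE, POLA2 and CDT1 held the last 3. Within 0.2 of 0 on the log2 scale lay 36 of the 50 members (72.0%), against 62.3% of the genes in their FPKM range. The members farthest from 0 were RFC1, TYMS, DBF4, RFC3, POLA2 and MCM6 on the lower side and POLD1 and MCM5 on the higher side, all of them past 0.25.

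**Figure D2:**
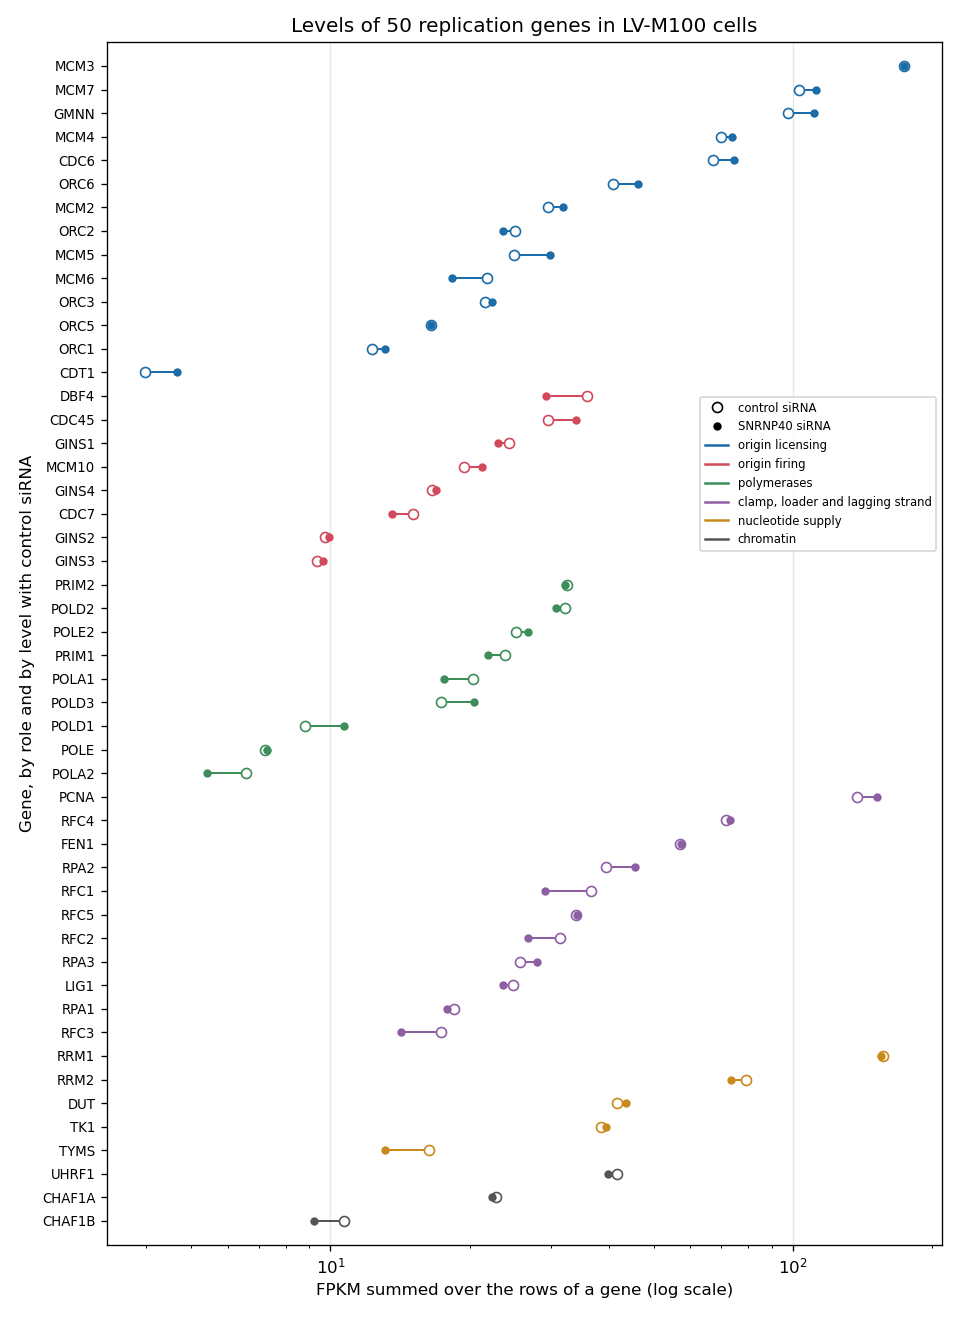
FPKM of the 50 genes, summed over the rows of a gene, on a log axis, with 1 open circle for control siRNA and 1 filled circle for SNRNP40 siRNA joined by a line and coloured by role. Levels run from 3.97 FPKM for CDT1 to 174 FPKM for MCM3 with control siRNA, and the circles of a gene lie close together compared with the distances between genes.

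The 14 licensing genes were the group with most members on the higher side, 10 of 14, with a median log2 fold change of 0.098 and values from -0.25 to 0.26. Of these genes 28.6% were lower, against 49.5% of all genes. MCM3 and ORC5, just below 0, were on the higher side with upper-quartile scaling, and ORC3 was on the lower side by its most expressed row. The helicase loader CDC6 had 67.3 FPKM with control siRNA and 74.6 FPKM after depletion (log2 fold change 0.15). Its partner CDT1, which brings the MCM complex to the origin, was the lowest member in level, with 3.97 and 4.65 FPKM (0.23). Geminin, encoded by GMNN, binds CDT1 and prevents renewed licensing in the same cycle, and its FPKM was 97.4 and 111 (0.19). These loading factors and their inhibitor thus lay on the same side of 0.

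Among the subunits of the MCM2-7 helicase, MCM5 had the highest log2 fold change, 0.26, with 25 FPKM with control siRNA and 29.9 FPKM after depletion. MCM6 stood on the other side with 21.8 and 18.3 FPKM (-0.25), and MCM3 had 174 FPKM in both conditions. MCM7 had 103 and 112 FPKM (0.11), MCM2 had 29.6 and 31.9 (0.11) and MCM4 had 70.1 and 74.0 (0.078). The complex holds these subunits in equal number, but FPKM, a level per length, differed 7.96-fold between MCM3 and MCM6 with control siRNA and 9.47-fold after depletion.

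Of the origin recognition complex, ORC6 was the most abundant listed subunit with 40.9 and 46.3 FPKM (log2 fold change 0.18). ORC1, the subunit whose protein is known to vary through the cell cycle, was the least abundant of them with 12.3 and 13.1 FPKM (0.088). Its log2 fold change was 0.25 when only rows above 0 in both conditions were summed, and 0.43 for its most expressed row. ORC2 had 25.1 and 23.6 FPKM (-0.083), ORC3 had 21.6 and 22.4 (0.051), and ORC5 had 16.5 in both conditions. Among these 5 subunits the highest level was 3.31 times the lowest with control siRNA and 3.54 times after depletion. ORC4, a subunit outside the set, had 56.9 and 60.1 FPKM, above ORC6 in both conditions.

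The 8 genes of origin firing had a median log2 fold change of 0.027, with 3 lower and 5 higher. Both subunits of the kinase that phosphorylates MCM were lower. DBF4 had 35.9 FPKM with control siRNA and 29.2 FPKM after depletion (-0.30), and CDC7 had 15.1 and 13.6 (-0.14). The CDC7 row with the highest mean of both conditions had a log2 fold change of 1.46, on the other side of 0. The CDC7 row that led with control siRNA had -1.88. The helicase cofactor CDC45 was on the higher side with 29.5 and 33.9 FPKM (0.20), as was MCM10, which acts in helicase activation, with 19.4 and 21.3 (0.14). The 4 subunits of GINS, which joins the helicase, all lay within 0.1 of 0. GINS1 had 24.3 and 23.0 FPKM (-0.081), GINS4 had 16.6 and 16.9 (0.027), GINS2 had 9.73 and 9.91 (0.027), and GINS3 had 9.33 and 9.62 (0.043).

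The 9 polymerase genes had a median log2 fold change of -0.012, with 5 lower and 4 higher. All 4 subunits of polymerase alpha-primase, which lays down the RNA-DNA primers, were lower after depletion, although PRIM2 was on the higher side with upper-quartile scaling. POLA2 had 6.57 FPKM with control siRNA and 5.41 FPKM after depletion (-0.28), and the catalytic subunit POLA1 had 20.3 and 17.6 (-0.21). The primase subunits had smaller differences, PRIM1 with 23.9 and 21.9 FPKM (-0.13) and PRIM2 with 32.5 and 32.2 (-0.012).

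Polymerase delta, which extends mainly the lagging strand, had 2 of 3 listed subunits on the higher side. Its catalytic subunit POLD1 had the highest log2 fold change of the whole set, 0.29, with 8.79 and 10.7 FPKM, and POLD3 had 17.3 and 20.4 (0.24), while POLD2 had 32.1 and 30.8 (-0.057). For polymerase epsilon, which extends mainly the leading strand, POLE had 7.21 and 7.28 FPKM (0.014) and POLE2 had 25.2 and 26.8 (0.088). In both of these enzymes the catalytic subunit was the least abundant listed subunit in each condition, whereas in polymerase alpha it was POLA2. POLD4, a polymerase delta subunit outside the set, had 13.2 and 8.65 FPKM and so lay below POLD1 after depletion.

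**Figure D3:**
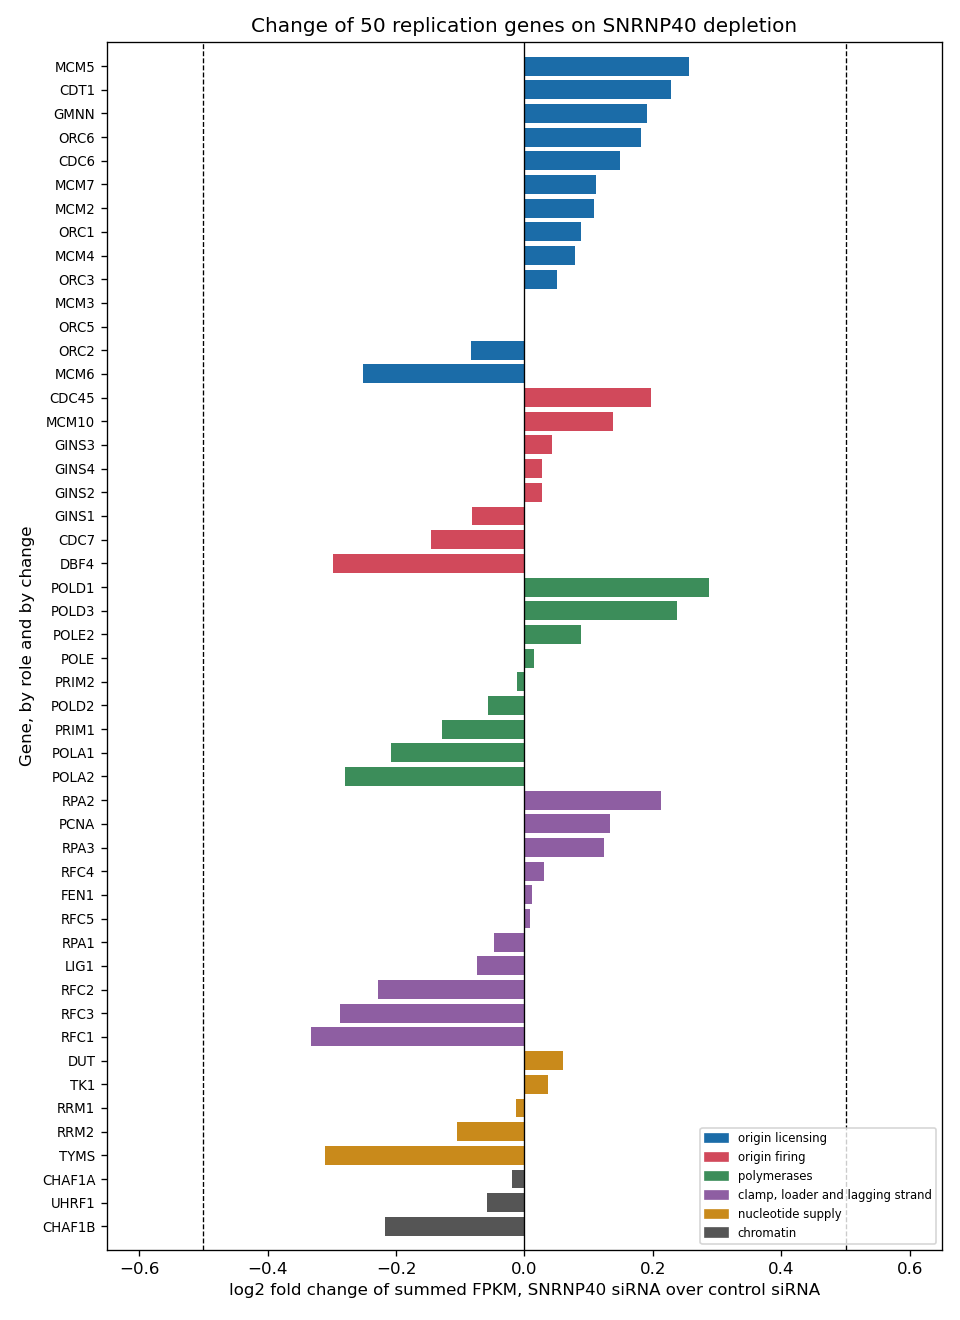
Log2 fold change of summed FPKM, SNRNP40 siRNA over control siRNA, as 1 bar per gene, coloured by role and ordered within each role, with dashed lines at 0.5 in either direction. No bar reaches a dashed line, the bars of licensing genes are mostly above 0 (10 of 14), and those of RFC1, TYMS and DBF4 extend farthest below 0.

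The 11 genes of the clamp, its loader, single-strand binding and lagging-strand joining had a median log2 fold change of 0.0083, with 5 lower and 6 higher. PCNA, the sliding clamp, had 138 FPKM with control siRNA and 152 FPKM after depletion (0.13). RFC1, the large subunit of the clamp loader, had the lowest log2 fold change of all 50 members, -0.33, with 36.6 and 29.1 FPKM. RFC3 had 17.3 and 14.2 FPKM (-0.29) and RFC2 had 31.4 and 26.8 (-0.23). The remaining small subunits lay close to 0, RFC4 with 71.6 and 73.1 FPKM (0.030) and RFC5 with 33.9 and 34.1 (0.0083), so the complex was split between 3 lower subunits and 2 at about the same value.

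RPA, the trimer that coats single-stranded DNA, had its 2 smaller subunits on the higher side, RPA2 with 39.4 and 45.6 FPKM (0.21) and RPA3 with 25.7 and 28.0 (0.12), and the large subunit RPA1 with 18.5 and 17.9 (-0.047). Of the enzymes that finish Okazaki fragments, the flap nuclease gene FEN1 had 57.0 and 57.4 FPKM (0.012) and the ligase gene LIG1 had 24.8 and 23.6 (-0.074).

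The 5 genes of nucleotide supply had a median log2 fold change of -0.013. TYMS, which makes thymidylate, was the only 1 of them past 0.25, with 16.3 FPKM with control siRNA and 13.1 FPKM after depletion (-0.31). The subunits of ribonucleotide reductase, RRM1 with 157 and 155 FPKM (-0.013) and RRM2 with 79.1 and 73.6 (-0.10), kept a ratio of 1.98 and 2.11 to each other in the 2 conditions. The thymidine kinase gene TK1 had 38.4 and 39.4 FPKM (0.036), and DUT, which removes dUTP, had 41.7 and 43.5 (0.060). Among the chromatin genes all 3 were lower, although CHAF1A was on the higher side with upper-quartile scaling. The CAF-1 subunit CHAF1B had 10.7 and 9.23 FPKM (-0.22), its partner CHAF1A had 22.8 and 22.4 (-0.020), and UHRF1, which brings the maintenance methyltransferase to the fork, had 41.6 and 39.9 (-0.059).

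Several members share sequence with other annotated genes, which can move fragments between them. On GRCh37, which has the coordinates of hg19, exons of 15 members overlap exons of another protein-coding gene in GENCODE release 44, among them TYMS, which shares 967 bases with ENOSF1 on the opposite strand, and 12 members have pseudogenes that carry the gene's symbol followed by P, with or without a number, up to 8 for DUT. PRIM2 is not among these 12, but it shares 640 exon bases with the annotated pseudogene PRIM2BP. Whether the authors' counting used the strand is not given in the sources used here. Some coding overlaps lie on the same strand, among them 2012 bases of POLA2 and 426 bases of POLD1, and strand cannot separate those. The values of all these genes carry such uncertainty.

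The sums conceal larger differences between rows of the same gene. There were 27 members with a single row and 23 with several, up to 5 for RFC5. The rows carry no transcript names, so the isoform behind a row is unknown, and fragments of overlapping transcripts are divided among rows by the authors' software. The same filter was passed by 70 member rows, of which 8 (11.4%) had an absolute log2 fold change above 1, against 10.5% of all 16691 such rows. They belonged to 5 genes, ORC3, CDC7, GINS3, GMNN and POLE2, and in all of these the log2 fold change of the summed FPKM was within 0.5 of 0. Below, the rows of a gene are numbered by their mean FPKM.

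ORC3, on chromosome 6 of hg19 from 88299785 to 88377172, had the largest contrast between its rows. Row 1 had 17.6 FPKM with control siRNA and 6.43 FPKM after depletion (log2 fold change -1.45), and row 2 had 2.64 and 15.9 (2.59). Row 1 thus held 81.7% of the gene's FPKM with control siRNA and 28.8% after depletion, and row 2 held 12.3% and 71.2%, so the leading row differed between the conditions while the sum stayed at 21.6 and 22.4 FPKM.

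CDC7, on chromosome 1 of hg19 from 91966404 to 91991321, had a similar exchange. Its row 1 had 3.51 and 9.67 FPKM (1.46) and held 23.3% and 70.9% of the gene's FPKM, while row 2 had 8.55 and 2.32 (-1.88) and held 56.8% and 17.0%. In GINS3, on chromosome 16 from 58426298 to 58440048, row 1 remained the leading row but went from 94.1% to 64.4%, with 8.79 and 6.20 FPKM, and row 2 had 0.171 and 2.64 FPKM (3.95). In GMNN row 4 had 13.4 and 2.36 FPKM (-2.50) and row 3 had 9.83 and 21.1 (1.10), so their order differed between the conditions. The leading row of GMNN had 52.6 and 64.1 FPKM (0.29). In POLE2 the third row had 1.13 and 3.11 FPKM (1.47).

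Across the 23 members with several rows, the largest shift in a row's share had a median of 3.02 percentage points. Over all genes with several rows that passed the filter it was 7.35, and those genes were not limited to the members' FPKM range. MCM4 and CDC45 entered with shifts of 0 and 0.0035, as their further rows lay at or near 0 FPKM. A shift of at least 20 points was found in 3 of 23 members (13.0%), ORC3, CDC7 and GINS3, and in 20.7% of 5282 genes with several rows that passed the filter. ORC1 came next with 17.8 points. Besides these, 7 member rows were listed at 0 in exactly 1 condition, and all 7 were at 0 after SNRNP40 depletion, where 66.8% of the 5952 such rows in the whole table were also at 0. The most abundant of them were the second rows of PCNA (5.38 FPKM with control siRNA) and ORC6 (2.20 FPKM). An exact 0 can be a failed estimate, and the summed FPKM of both genes was higher in depleted cells.

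**Figure D4:**
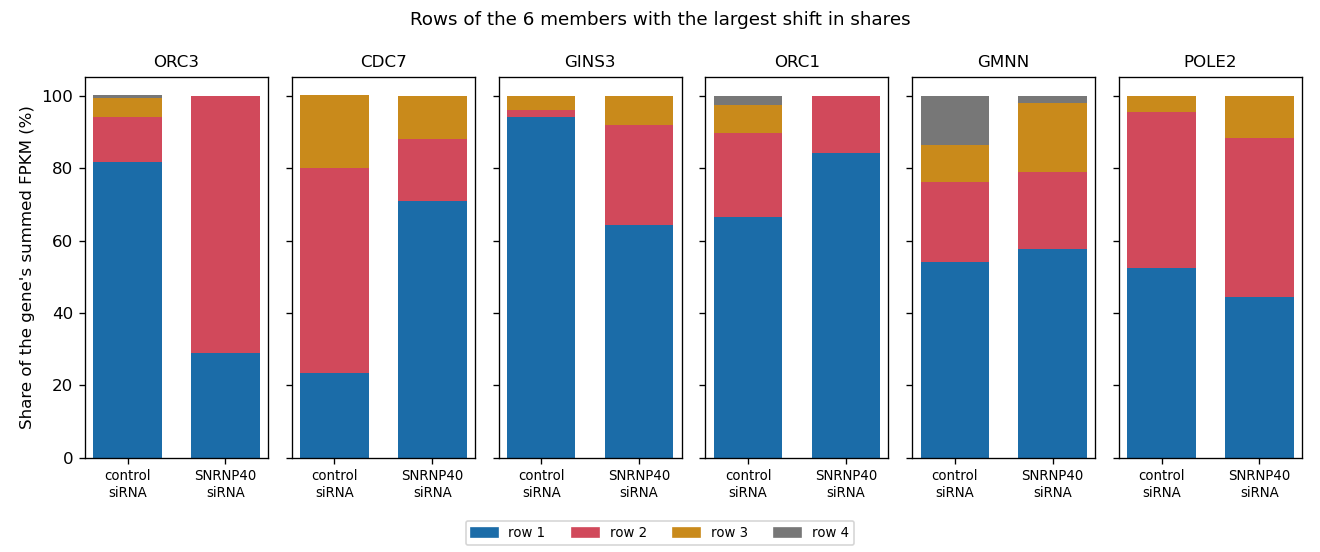
Share of a gene's summed FPKM held by each of its rows, in percent, with control siRNA and with SNRNP40 siRNA, for the 6 members with the largest shift. Rows are numbered by their mean FPKM, and row 2 of ORC3 goes from 12.3% to 71.2% while row 1 of CDC7 goes from 23.3% to 70.9%.

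Other genes of the pathway were looked up from lists of forks and origins, nucleotide supply, chromatin replication and the E2F family. Of 83 symbols 81 were found, and all 81 passed the filter. The symbols not found were newer names of genes that were found under their older names. Together the 81 genes had a median log2 fold change of -0.048, with 46 lower (56.8%, against 49.5% of all genes) and 35 higher. Of the 30 other fork and origin genes 21 were lower (70.0%), with a median of -0.055, and 3 lay below -0.5, where 5.06% of all genes lay. These were POLD4, the small subunit of polymerase delta, with 13.2 FPKM with control siRNA and 8.65 FPKM after depletion (-0.60), the topoisomerase gene TOP1 with 35.2 and 23.1 (-0.60), and RNASEH2B, a subunit of the nuclease that removes ribonucleotides from DNA, with 40.7 and 27.8 (-0.55). POLD4 was thus on the other side of 0 from POLD1 and POLD3.

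Of 31 other nucleotide supply genes 14 were lower (45.2%, against 49.5% of all genes) and 17 higher, with a median log2 fold change of 0.019, and of 10 other chromatin replication genes 7 were lower (70.0%), with a median of -0.092. No gene of these lists was past 0.5. The 10 genes of the E2F family and its partners had a median of 0.10, with 4 lower (40.0%) and 6 higher, and E2F2 was the only 1 of them past 0.5 (5.24% of all genes lay above it), at a low level of 1.26 and 2.01 FPKM (0.67).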

How the data were processed

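RNA of 4 libraries, 2 with control siRNAs and 2 with SNRNP40 siRNAs, was examined as deposited. The authors trimmed reads with cutadapt 1.2.1, aligned them to hg19 with TopHat 2.0.8, merged assemblies with Cufflinks and cuffmerge and ran cuffdiff 2.0.2. The FPKM values were scaled by the authors to transcript length and to mapped fragments, transcript by transcript, with 1 pooled value per condition. The deposited table also holds fold changes, test statistics and p-values of the authors' own comparison, which were not used. Samples were grouped by their titles.

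FPKM was summed per gene symbol, and genes were kept where the fold change was finite and the conditions averaged 1 FPKM or more. No test was run, because the libraries are pooled, and depth is unknown. Lists are given by counts and medians beside all genes. The members, role groups, lists and limits were chosen with earlier results of these data known. By the rule for naming genes, every member is named, and of other pathway genes those past 0.5 on the log2 scale. ORC4 is named in addition, because its level was above that of ORC6. Promoter windows came from RefSeq on GRCh38.p14 and exons from GENCODE release 44 on GRCh37, where 50 of 50 members matched 1 gene by symbol. Alternatives changed the filter, the pseudocount, the scaling and the summing of rows, and some were added after the data were seen. The steps were tested on simulated data with planted changes larger than the limits, which checks the code and not the reliability of these values. Figures were drawn with matplotlib 3.10.9, and values were computed with pandas 2.3.3, scipy 1.17.1 and numpy 2.4.6 under Python 3.11.15.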

Additional observations from a re-analysis of the deposited data

How the results depend on the processing

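No paired analysis was possible because the table holds 1 pooled value per condition, and leaving out a replicate could not be done for the same reason. A log2 value was counted as moved from a difference of 0.1, and a count from a ratio over 1.5. The number of members past 0.5 was 0 in either direction except with the most expressed row in place of the sum, which put 2 members (ORC3 and GINS3) below -0.5 and 1 (CDC7) above 0.5. The most expressed row was picked by the mean of both conditions, and in CDC7 it was not the leading row with control siRNA. Using the most expressed row also moved ORC1 to 0.43, POLD2 to -0.22 and POLE2 to -0.15, and ORC1 was at 0.25 with rows above 0 in both conditions, where no other member moved by 0.1. The counts of 23 lower and 27 higher members were 18 and 32 with upper-quartile scaling, where the 5 members that changed side lay within 0.0201 of 0. The medians of the polymerase and nucleotide supply genes, both just below 0, were above 0 with that scaling, as was that of the members without an E2F match. Among the 27 members with a single row, a choice made after the data were seen, 14 were lower (51.9%) and 13 higher. Of the 23 members with several rows, 9 were lower (39.1%) and 14 higher. The median log2 fold change of the members stayed between -0.0006 and 0.0436 in all these settings. A shift of at least 10 percentage points was found in 5 members, against 3 at 20 points. The 8 rows past 1 were 6 when row means of 5 FPKM were asked for, and 7 with a pseudocount of 1. What depth limits cannot be stated, since no read counts are given.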

Other observations

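Spearman's rho between the log2 fold change and the genomic span of the canonical transcript was -0.22 across the 50 replication genes, and it was -0.20 for transcript length, -0.10 for the number of exons and 0.18 for the mean FPKM. Over 10252 genes with an annotation the first 3 of these were -0.15, -0.13 and -0.10, and over 12334 genes rho with the mean FPKM was -0.09. These values describe genes that share the same pooled libraries and are not tests. The longest members were PRIM2, with a canonical transcript spanning 330949 bases and a log2 fold change of -0.012, and POLA1, spanning 303069 bases with a log2 fold change of -0.21.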
